A study of Mus musculus with 7 samples.

Results

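Long non-coding RNAs are transcripts that are not translated and that act, where a function is known, in the nucleus on chromatin, on splicing or on the genes beside them. 10 such genes were followed here in mouse oligodendroglia with raised Sox9: the pair that lies beside Sox9 itself (2610035D17Rik and BC006965), 2 RNAs of nuclear bodies (Malat1 and Neat1), the imprinted Meg3, and the neural genes Miat, Dlx6os1, Sox2ot, Pantr1 and Rmst. They were picked by gene name from a table of 49315 genes. Of the 10 names, 9 had a row and Rmst was not analysed here; Dlx6os1 matched 2 rows, its own gene and a short RNA entry inside it, so that 10 rows in all were followed, and all 10 passed the filter on low counts.

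Oligodendroglia derived from mouse brain were sequenced as bulk RNA from 3 Control libraries (genotype Sox9-wt) and 4 Sox9-tg libraries that overexpress Sox9. By its title the series is about early postnatal NG2 glia, the dividing progenitors of oligodendrocytes, and about the target genes of Sox9 in them. The labels call the libraries biological replicates but do not say whether they came from separate animals or cultures, so the spread between them may in part be technical, and they name no promoter or Cre line that drives the transgene, no age in days, no sex and no batch. Totals ran from 15768472 to 30507326 gene counts per library. Levels are counts per 1000000 counts of the library (CPM) after scaling, values after ± are SD over the 3 Control or the 4 Sox9-tg libraries, and a log2 fold change is Sox9-tg minus Control, with its standard error (SE). Adjusted p-values are Benjamini-Hochberg values over the 16616 genes tested with edgeR (quasi-likelihood F test), and a gene passed below 0.05.

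Markers of the labelled cells were present, in Control beside similar sums of neuronal markers. Of 12 NG2 glia markers, 11 rose, and they summed to 4520 to 5577 CPM in the Control libraries and 10840 to 14730 CPM in the Sox9-tg libraries. Of 10 tested oligodendrocyte markers of 12 listed, 8 rose, and the summed level went from 192 to 364 CPM in Control to 1247 to 6751 CPM in Sox9-tg libraries, where Sox9-tg replicate 1 was the lowest. Opalin, a late myelin gene, was at 0 in at least 1 library. In Control, Ptprz1 alone gave 1901 to 2642 CPM of the NG2 glia sum. Markers of other cells were present too, and in Control replicate 1 the neuronal sum (5298 CPM) was above the NG2 glia sum (4669 CPM). The 12 interneuron markers summed to 2393 to 4217 CPM in the Control and 755 to 2885 CPM in the Sox9-tg libraries, with 1 lower. The 12 neuronal markers summed to 3263 to 5298 CPM in the Control and 2060 to 3900 CPM in the Sox9-tg libraries, and 5 of them fell, while the 11 astrocyte markers summed to 2421 to 4392 and 1673 to 2470 CPM, with 4 lower and 1 higher. Because these are bulk libraries, fewer cells of a type and less RNA per cell cannot be told apart.

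These 10 genes were listed with values of this comparison already known, so their differences between the groups are a description and carry no test of their own. Of the 10 rows, 1 passed the threshold upward and 2 downward, beside 13.5% of all genes tested (7.69% higher and 5.86% lower) and 9.52% of the 1365 tested genes with a long non-coding biotype. For 4 rows the groups did not overlap, 2 with every Sox9-tg library above and 2 with every one below every Control library, beside 24.5% of all genes (13.1% above and 11.5% below). The median log2 fold change of the 10 rows was -0.64, and that of all genes tested was -0.01.

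**Figure D1:**
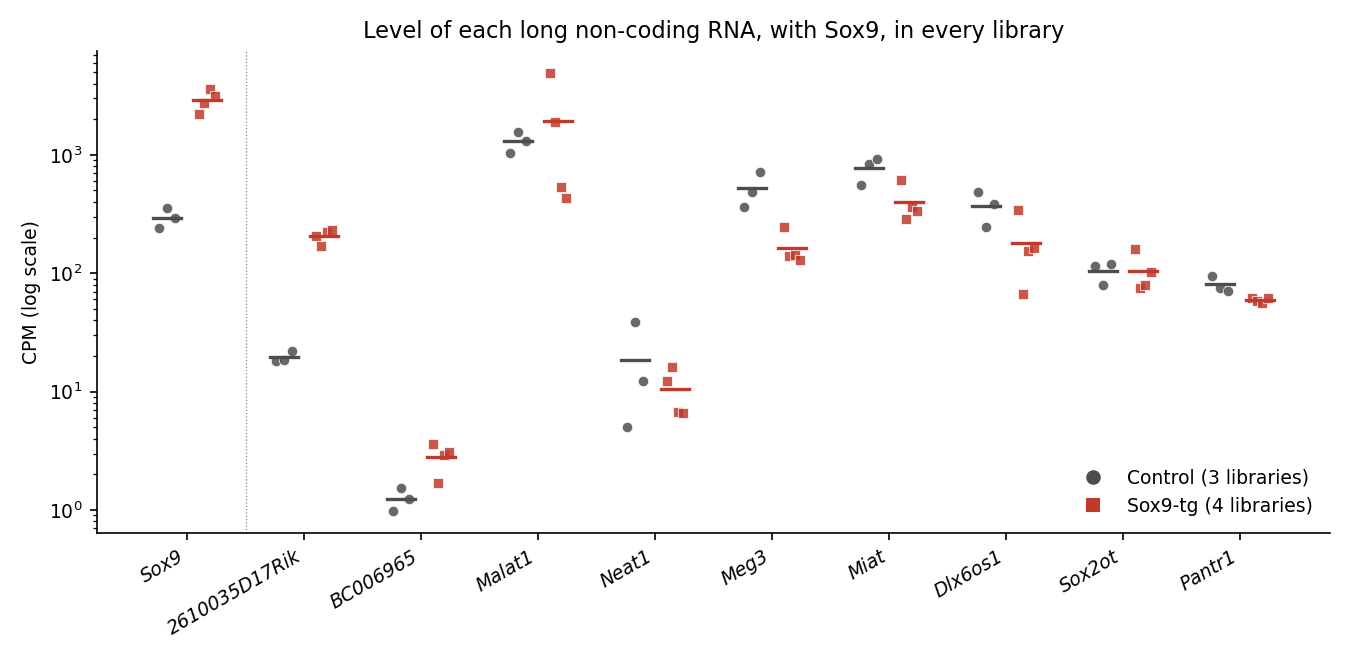
CPM of Sox9 and of the long non-coding RNAs in each library, on a log axis, with grey circles for the 3 Control and red squares for the 4 Sox9-tg libraries and a bar at each group's mean. Like Sox9, 2610035D17Rik is higher in every Sox9-tg library, at 171 CPM or more, than in any Control library, at 21.9 CPM or less. Malat1 spreads from 428 to 4942 CPM among the Sox9-tg libraries alone.

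Sox9, which directs chondrocyte and glial fate, checks the labels. Its level was 239, 353 and 293 CPM in Control libraries 1 to 3, against 2207, 2741, 3597 and 3115 CPM in Sox9-tg libraries 1 to 4, and the log2 fold change was 3.31 (SE 0.24, adjusted p = 0.000181). Every Sox9-tg library was above every Control library. Transgene and resident Sox9 transcripts cannot be told apart in counts per gene.

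2610035D17Rik is a long intergenic RNA on GRCm38 chromosome 11, 113043895 to 113201838, minus strand. Its nearer end lies 256 kb beyond the 3′ end of Sox9 (chromosome 11, 112782224 to 112787760, plus strand), in the stretch of the gene-poor Sox9 domain that holds no other tested gene before it, and it is transcribed towards Sox9. None of its 2121 exon bases is shared with another annotated gene. Its promoter is printed because this gene differed most between the groups; it runs from 250 bases before to 50 bases after the RefSeq start (GRCm38.p6, chr11:113201789-113202088, minus strand, 5′ to 3′), with the letters ACAAT or ACAAAG, the core that SOX proteins bind, searched on both strands and shown in capitals.
2610035D17Rik promoter: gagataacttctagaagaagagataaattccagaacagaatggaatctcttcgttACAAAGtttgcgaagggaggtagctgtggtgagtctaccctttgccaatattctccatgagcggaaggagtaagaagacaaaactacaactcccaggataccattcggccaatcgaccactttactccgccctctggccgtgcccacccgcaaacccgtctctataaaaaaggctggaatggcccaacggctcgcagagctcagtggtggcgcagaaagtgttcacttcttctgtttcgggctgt
The window held 1 match, ACAAAG, beginning 195 bases before the start. At least 1 match stood in 42.9% of all 32851 promoters of that length (31% for ACAAT and 18.7% for ACAAAG), so such a match is common, and it is a description of letters and not of binding.

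2610035D17Rik stood at 18.3, 18.5 and 21.9 CPM in Control libraries 1 to 3, and at 206, 171, 222 and 234 CPM in Sox9-tg libraries 1 to 4. The groups were far apart, the highest library being 1.2 times the lowest in Control and 1.37 times the lowest in Sox9-tg. The mean went from 19.6 ± 2.03 to 208 ± 27.2 CPM, a log2 fold change of 3.41 (SE 0.16), rank 19 from the top among the 1365 long non-coding genes tested. Set against Sox9 in the same library, there were 7.66, 5.25 and 7.48 CPM of 2610035D17Rik for every 100 CPM of Sox9 in Control libraries 1 to 3, and 9.34, 6.24, 6.16 and 7.51 in Sox9-tg libraries 1 to 4. These ratios overlapped between the groups (6.80 ± 1.34 and 7.31 ± 1.49).

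BC006965 lies on the other side of Sox9 and on the opposite strand (chromosome 11, 112663927 to 112781976, minus strand). Its outermost annotated start is 248 bases from the Sox9 start, so that both genes run away from a shared stretch of sequence. In GENCODE M21 only 1 of its 18 transcripts starts within 1 kb of Sox9. That transcript's first exon is printed because it is the part of the gene that faces Sox9 (GRCm38, chr11:112781954-112781976, minus strand, 5′ to 3′); it holds no ACAAT or ACAAAG, so nothing stands in capitals. The RefSeq start lies further inside the gene, and its promoter (GRCm38.p6, chr11:112711307-112711606, minus strand, 5′ to 3′, SOX core letters in capitals) is set beside it to show that the gene has a separate start.
BC006965 first exon beside Sox9: ggggacccgggacgtccgagtgt
BC006965 promoter at the RefSeq start: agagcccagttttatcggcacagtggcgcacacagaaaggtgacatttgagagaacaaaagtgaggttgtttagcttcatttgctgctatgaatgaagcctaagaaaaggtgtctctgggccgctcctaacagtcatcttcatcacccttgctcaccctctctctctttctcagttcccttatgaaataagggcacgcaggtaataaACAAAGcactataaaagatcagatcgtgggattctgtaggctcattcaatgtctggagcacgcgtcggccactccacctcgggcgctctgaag
This window also held 1 match, ACAAAG, 43 bases before the start. Counts per gene do not say which of the starts was used.

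BC006965 was scarce, with 17, 47 and 38 counts in Control libraries 1 to 3 and 69, 34, 45 and 63 counts in Sox9-tg libraries 1 to 4. Scaled for depth, the Control values were 0.988, 1.53 and 1.23 CPM, and those of Sox9-tg 3.62, 1.70, 2.90 and 3.07 CPM. Every Sox9-tg library was above every Control library, the closest being Sox9-tg replicate 2 and Control replicate 2. The log2 fold change was 1.17 (SE 0.36). BC006965 did not pass with all libraries, but it passed without Sox9-tg replicate 2 (1.36) or with DESeq2 (1.17). Per 100 CPM of Sox9 there was 0.422 ± 0.00993 CPM of BC006965 in the Control and 0.101 ± 0.0445 CPM in the Sox9-tg libraries, and these ratios did not overlap, the highest in Sox9-tg being 0.164 and the lowest in Control 0.414. The small Control SD rests on 17, 47 and 38 counts and is no measure of precision. The ratio to Sox9 thus overlapped between the groups for the distant RNA and was lower in every Sox9-tg library for the adjacent, divergent one. Because Sox9 counts in Sox9-tg libraries may include transgene transcripts, neither ratio compares an RNA with resident Sox9 alone.

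Other genes around Sox9 gave a mixed picture. Within 2 Mb of Sox9, 16 genes were tested, Sox9 among them and the 2 long non-coding RNAs not counted. Besides Sox9, Kif19a, which encodes a motor protein of cilia, rose at 1980 kb from 7.13 ± 2.68 to 33.3 ± 19.9 CPM, with a log2 fold change of 2.21 (SE 0.47, adjusted p = 0.0165). Without Control replicate 1 its adjusted p was 0.0622, and without Control replicate 3 it was 0.0752. The adhesion molecule gene Sdk2 fell from 128 ± 33.3 to 30.9 ± 14.99 CPM (-2.05, SE 0.33, adjusted p = 0.00473), and the somatostatin receptor gene Sstr2 fell from 15.6 ± 10.5 to 4.09 ± 0.728 CPM (-1.92, SE 0.40, adjusted p = 0.0154, or 0.0512 with limma-voom). The potassium channel genes Kcnj2 and Kcnj16, which border the domain on the 5′ side, did not pass, with log2 fold changes of -0.89 (SE 0.60) and 0.77 (SE 0.23). The zinc transporter gene Slc39a11, the nearest coding gene beyond 2610035D17Rik at 43.0 kb from it, had 26.7 ± 1.86 and 28.5 ± 4.60 CPM (0.10, SE 0.15, adjusted p = 0.743).

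**Figure D2:**
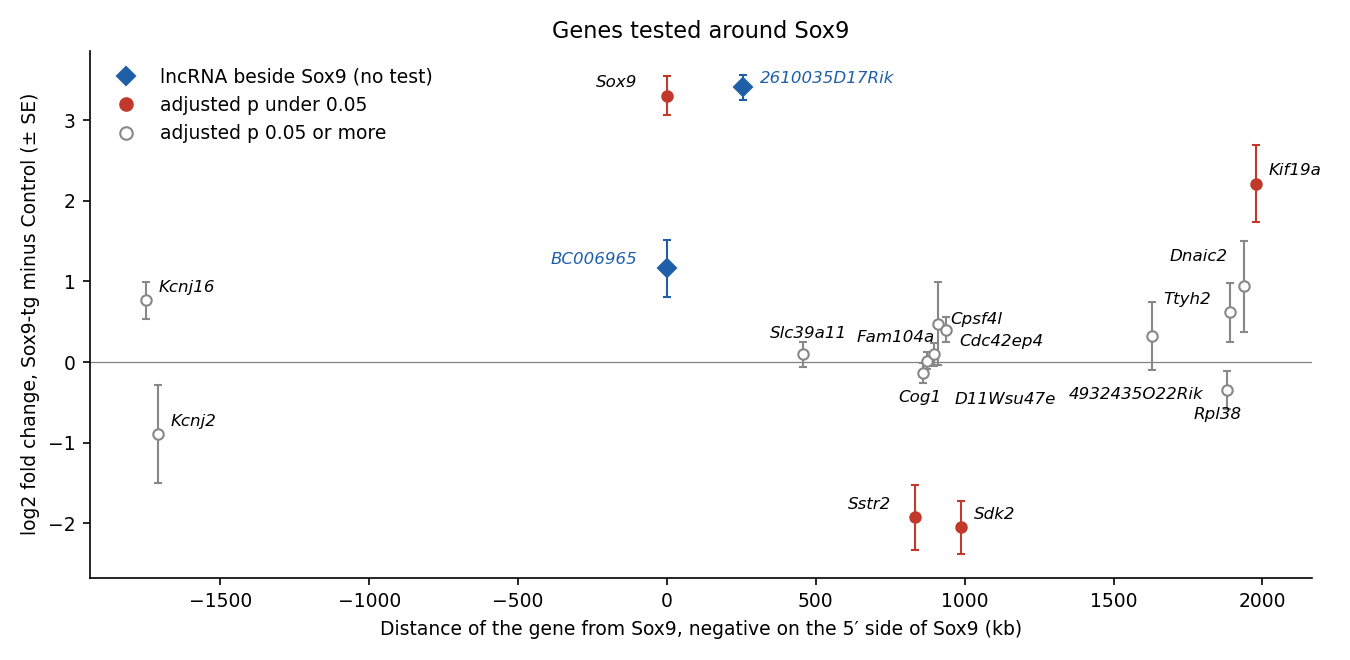
Log2 fold change with its SE for the genes tested within 2 Mb of Sox9, by distance from Sox9 in kb, with blue diamonds for the long non-coding RNAs beside Sox9, filled red circles for genes past the threshold and open circles for the others. 2610035D17Rik stands level with Sox9 at 3.41 against 3.31, BC006965 is at 1.17, and Slc39a11 is at 0.10.

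Malat1 and Neat1 are neighbours on chromosome 19 that are kept in the nucleus. Malat1 (chromosome 19, 5795690 to 5802672, minus strand) collects at nuclear speckles, the stores of splicing factors, and Neat1 (5824708 to 5845478, minus strand) is the scaffold of paraspeckles. Malat1 shared 7.72% of its exon bases with other annotated genes, part of them on the opposite strand, and Neat1 shared 1.85%.

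Malat1 had 1027, 1559 and 1319 CPM in the Control libraries in order of replicate, and 4942, 1883, 531 and 428 CPM in the Sox9-tg libraries. Sox9-tg libraries stood on both sides of Control: replicates 1 and 2 were above every Control library, and replicates 3 and 4 below every one. The log2 fold change was 0.58 (SE 0.75), and it was -0.46 without Sox9-tg replicate 1. The highest Sox9-tg library was 11.6 times the lowest, while in Control the factor was 1.52. The former was the fourth widest range of the 5013 genes with a mean of at least 50 CPM over all libraries. Kcnq1ot1, a long nuclear RNA of another imprinted region, was also highest in Sox9-tg replicate 1, at 90.6 CPM, against 5.42 to 21.4 CPM in the other Sox9-tg and 12.2 to 20.5 CPM in Control libraries. Other listed long non-coding RNAs went both ways. Among Sox9-tg libraries, Mir99ahg and Dleu2 were highest in replicate 1. Gm26917 (408 against 762 to 1006 CPM) and H19 (18.4 against 59.9 to 172 CPM) were lowest in it. Other shares differed among these libraries: mitochondrial genes took 0.966% and 1.23% of counts in Sox9-tg replicates 1 and 2, 0.42% and 0.377% in replicates 3 and 4, and 1.06% to 1.91% in Control, and the part of RNA quality or nuclear RNA in the Malat1 values was not tested.

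For Neat1 the Control libraries gave 5.06, 38.6 and 12.3 CPM, and the Sox9-tg libraries 12.3, 16.2, 6.76 and 6.54 CPM. The groups overlapped, and Control replicate 2 was far above all the rest. The log2 fold change was -0.84 (SE 0.60) with all libraries and 0.26 without Control replicate 2. The 10 microglial markers, among them Cx3cr1, P2ry12 and C1qa, summed to 118, 851 and 256 CPM in Control libraries 1 to 3 and to 59.4, 360, 128 and 99.4 CPM in Sox9-tg libraries 1 to 4, so that the same library was highest, and none of the 10 was at 0 in any library. The 8 endothelial markers were highest in it as well, at 148 CPM against 7.83 to 34.8 CPM in the other libraries, with Emcn at 0 in at least 1 library, and so was the sum of the 8 pericyte and meningeal markers, at 119 CPM against 22.3 to 51.1 CPM. Of this last list Lum, a matrix proteoglycan gene, went the other way: it was at 0 in at least 1 Control library, at most 0.325 CPM in the others, and rose to 1.36 to 6.88 CPM in Sox9-tg libraries (adjusted p = 0.015). None of the 10 microglial and 6 tested endothelial markers passed with edgeR, DESeq2 or limma-voom, and 1 and 2 of them had an unadjusted p under 0.05. The part of these cells in the Neat1 values was not tested.

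Of 7 genes for paraspeckle proteins, among them Nono, Sfpq and Pspc1, none passed with edgeR, DESeq2 or limma-voom, 1 had an unadjusted p under 0.05 (Tardbp), and the median log2 fold change was -0.12. Of 6 genes for speckle proteins (Srsf1, Srsf2, Srsf3, Son, Srrm1 and Srrm2), none passed with edgeR or limma-voom, and the median was -0.12. Srsf2, at -0.33 and the only member with an unadjusted p under 0.05, had an adjusted p = 0.118, and it passed with DESeq2 (0.02) or with upper-quartile factors (0.0498). Next to Neat1, at 4.22 kb, the membrane protein gene Frmd8 rose from 42.2 ± 4.76 to 68.8 ± 9.75 CPM (0.70, SE 0.14, adjusted p = 0.0141, or 0.0782 without Control replicate 3). Of 52 genes tested within 500 kb of Malat1, 1 rose and 2 fell, the latter being the replication gene Pola2 (-0.63) and the cohesion gene Cdca5 (-1.09); without Control replicate 3 their adjusted p-values were 0.109 and 0.0652, and Pola2 was also lost without Control replicate 1 (0.115), Sox9-tg replicate 3 (0.0665) or Sox9-tg replicate 4 (0.0605).

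Meg3 (chromosome 12, 109541001 to 109571726, plus strand) is transcribed from the maternal chromosome of the Dlk1-Dio3 imprinted region. The maternal copy also yields Rian and Mirg, long RNAs downstream on the same strand that host small nucleolar RNAs and microRNAs, whereas the coding genes Dlk1, Rtl1 and Dio3 are expressed from the paternal copy. The Meg3 promoter is printed because this gene was the furthest below Control of the long non-coding genes followed here (GRCm38.p6, chr12:109540746-109541045, plus strand, 5′ to 3′); capitals mark TGACGTCA, the site of cyclic AMP response factors for which this promoter is known.
Meg3 promoter: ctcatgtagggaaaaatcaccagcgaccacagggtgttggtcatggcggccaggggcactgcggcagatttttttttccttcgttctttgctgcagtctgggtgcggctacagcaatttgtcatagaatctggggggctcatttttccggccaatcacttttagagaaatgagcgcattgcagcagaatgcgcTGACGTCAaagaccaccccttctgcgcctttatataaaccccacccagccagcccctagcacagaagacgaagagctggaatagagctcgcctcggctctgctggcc
The letters begin 57 bases before the start, and 1.79% of all promoters of this length hold them. Neither ACAAT nor ACAAAG is in this window. The other RefSeq entries matched among the 10 names were those of Miat, Malat1 and Dlx6os1, 6 genes in all; Sox2ot, Neat1, Pantr1 and Rmst had none.

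Meg3 counted 363, 488 and 717 CPM in Control libraries 1 to 3, and 245, 140, 144 and 129 CPM in Sox9-tg libraries 1 to 4. Every Sox9-tg library was below every Control library, with Sox9-tg replicate 1 the nearest to Control. The means were 523 ± 179 and 164 ± 54.0 CPM, a level 3.18 times lower in Sox9-tg (log2 fold change -1.67, SE 0.28), and the log2 fold change stayed between -1.93 and -1.37 in all 15 alternatives. Of the exon bases of Meg3, 8.29% were shared with other annotated genes, most of them with an antisense gene.

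The 2 maternal RNAs that follow Meg3 fell too. Rian fell from 188, 171 and 212 CPM to 97.2, 97.9, 61.6 and 68.1 CPM, with a log2 fold change of -1.23 (SE 0.18, adjusted p = 0.00354). Mirg fell from 8.49, 6.11 and 10.3 CPM to 2.99, 1.30, 1.09 and 1.56 CPM (-2.25, SE 0.37, adjusted p = 0.00555). In both genes the groups did not overlap.

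The coding genes Dio3, Rtl1 and Dlk1 were scarce. Dio3, the deiodinase that inactivates thyroid hormone, fell from 5.06, 1.46 and 2.68 CPM in Control libraries 1 to 3 to 0.42, 0.249, 0.322 and 0.39 CPM in Sox9-tg libraries 1 to 4 (-3.12, SE 0.48, adjusted p = 0.00404). Rtl1, a gene derived from a retrotransposon, had 3.11 ± 0.866 and 1.44 ± 1.17 CPM and did not pass (-1.11, SE 0.59, adjusted p = 0.269, or 0.039 without Sox9-tg replicate 1). Dlk1, which encodes a membrane protein related to Notch ligands, had 4.56 ± 0.274 and 5.19 ± 4.25 CPM (0.19, SE 0.52, adjusted p = 0.862). Begain, at 473 kb from Meg3, fell from 48.5 ± 7.91 to 32.0 ± 4.19 CPM (-0.60, SE 0.15, adjusted p = 0.0278), a call lost when Control replicate 3 was left out (0.144), or Sox9-tg replicate 2 (0.0606), 3 (0.0777) or 4 (0.0983). Of the 6 listed genes of the region, 4 fell and none rose, beside 5.86% lower and 7.69% higher of all genes tested. Their median log2 fold change was -1.17, and the list was chosen with earlier results of these data known.

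**Figure D3:**
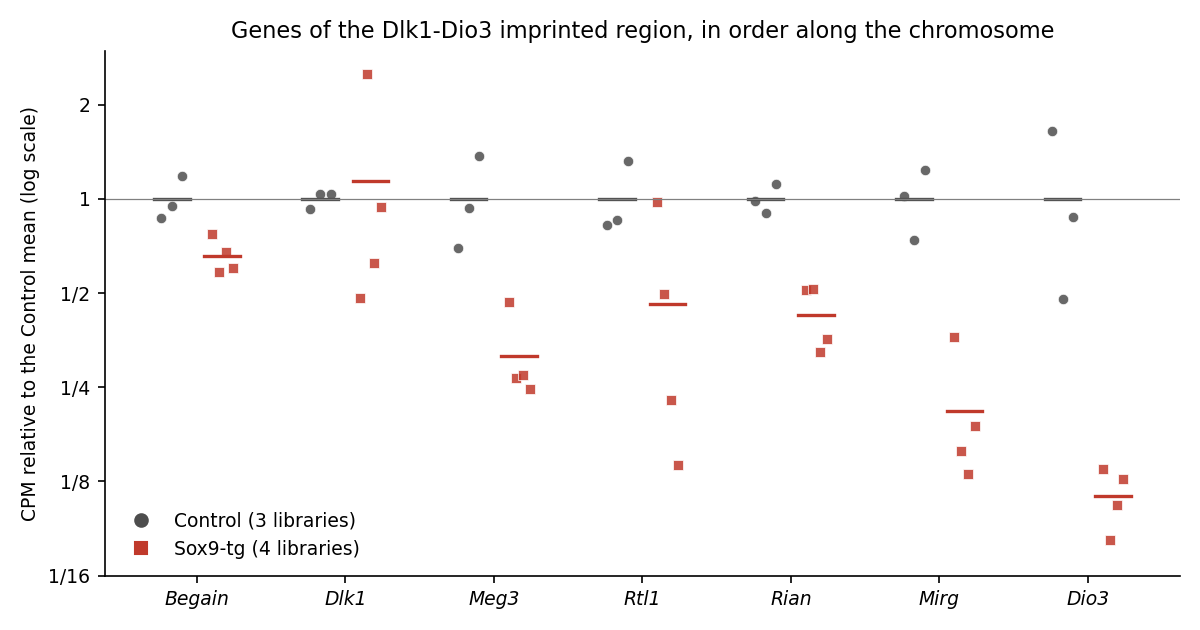
CPM of 7 genes of the Dlk1-Dio3 region relative to each gene's Control mean, on a log axis, with grey circles for Control and red squares for Sox9-tg libraries and a bar at each group's mean. The Sox9-tg libraries of Meg3, Rian, Mirg and Dio3 all lie below every Control library, while those of Dlk1 and Rtl1 lie across them.

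Miat (chromosome 5, 112213228 to 112229395, minus strand), also called Gomafu, is a nuclear RNA of neurons and their progenitors. It is known for repeats of UACUAAC, the letters of the intron branch point, through which it binds splicing factor 1; the Quaking proteins of glia bind a related motif. Its longest annotated transcript (9163 bases, 7 exons) held TACTAAC, in DNA letters and on the transcript's strand, 6 times, and among the longest transcripts of 16563 tested genes only 1 other held at least as many. The motif stood in 7.89% of these transcripts and in 0.676% of their windows of 300 bases, once in Neat1 and in none of the longest transcripts of the other 7 genes followed here. The stretch of Miat with the most repeats is printed to show their spacing, with each TACTAAC in capitals (bases 4931 to 5082 of the transcript, GRCm38 chr5:112217309-112217460, minus strand, 5′ to 3′).
Miat repeats: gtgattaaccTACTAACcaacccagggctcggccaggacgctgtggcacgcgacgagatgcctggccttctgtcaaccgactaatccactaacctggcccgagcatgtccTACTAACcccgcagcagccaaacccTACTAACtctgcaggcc
It holds 3 copies in 152 bases.

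The level of Miat was 556, 834 and 928 CPM in Control libraries 1 to 3, and 609, 286, 364 and 333 CPM in Sox9-tg libraries 1 to 4. The groups overlapped through a single library on each side, Sox9-tg replicate 1 lying above Control replicate 1. The means were 773 ± 193 and 398 ± 144 CPM. The log2 fold change of -0.96 (SE 0.28) missed the threshold; Miat passed without Sox9-tg replicate 1 (-1.24), with DESeq2 and with no filter on low counts. With other genes, an antisense gene among them, 30.4% of its exon bases were shared, so its count may hold reads of those genes. Of its partners, Sf1, which encodes splicing factor 1, had 391 ± 29.6 and 347 ± 13.2 CPM (adjusted p = 0.378), Qk, the Quaking gene, 821 ± 154 and 1091 ± 199 CPM (adjusted p = 0.222), and Celf3 231 ± 48.1 and 185 ± 66.5 CPM (adjusted p = 0.554); none passed with edgeR, DESeq2 or limma-voom, and none had an unadjusted p under 0.05. Of 12 genes tested within 500 kb, Sez6l, a neuronal membrane protein gene at 190 kb, rose from 113 ± 13.3 to 200 ± 17.8 CPM (0.82, SE 0.13, adjusted p = 0.00413).

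Dlx6os1 (chromosome 6, 6820189 to 6871592, minus strand), or Evf2, is antisense to Dlx6 and is made in progenitors of the ventral forebrain, where it acts on Dlx5, Dlx6 and Gad1. It shared no exon base with Dlx6 itself. Its level was 489, 244 and 386 CPM in the Control libraries and 339, 66.5, 155 and 164 CPM in the Sox9-tg libraries. Sox9-tg replicate 1 lay between the Control libraries, and the other Sox9-tg libraries lay below all of them. With all libraries Dlx6os1 had a log2 fold change of -1.04 (SE 0.46), under the threshold, and without Sox9-tg replicate 1 it was -1.54 and passed. Dlx6os1 also passed with the replicate number as a block and without Sox9-tg replicate 4. The short RNA entry of the same name (6871488 to 6871633) had only 6 to 47 counts per library and shared 71.2% of its bases with Dlx6os1; its log2 fold change was -1.05 (SE 0.67), and -2.13 without Sox9-tg replicate 1.

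The 12 interneuron markers summed to 4217, 2393 and 4003 CPM in Control libraries 1 to 3 and to 2885, 755, 2038 and 1946 CPM in Sox9-tg libraries 1 to 4, with none of the 12 at 0 in any library. For this sum as for Dlx6os1, Control replicate 2 was the lowest Control library, Sox9-tg replicate 1 the highest and replicate 2 the lowest Sox9-tg library. Gad2, an enzyme of GABA synthesis, fell from 183 ± 59.5 to 46.1 ± 24.1 CPM (-1.99, SE 0.39, adjusted p = 0.0122, or 0.0544 without Control replicate 3). Dlx1 (1244 ± 360 and 723 ± 331 CPM), Dlx2 (461 ± 139 and 267 ± 123 CPM), Dlx5 (142 ± 40.4 and 96.2 ± 45.6 CPM), Dlx6 (51.3 ± 16.8 and 62.1 ± 23.2 CPM) and Gad1 (225 ± 71.1 and 130 ± 55.4 CPM) did not pass. With the replicate number as a block and without Sox9-tg replicate 4, Dlx1, Dlx2, Dlx5 and Gad1 passed downward. The part of interneuron RNA in the Dlx6os1 values was not tested.

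**Figure D4:**
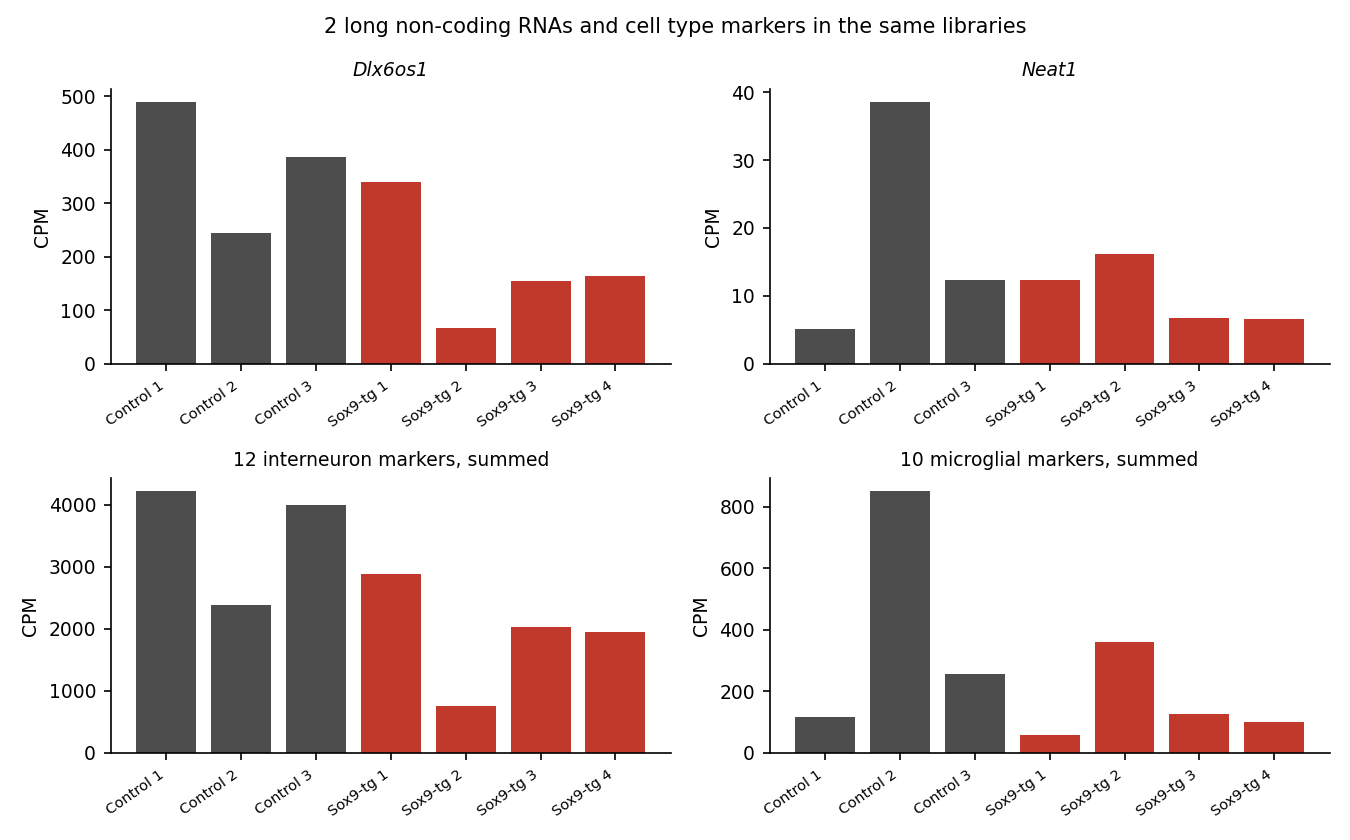
Bars give the CPM of Dlx6os1 and Neat1 in each library (top) and the summed CPM of 12 interneuron and 10 microglial markers in the same libraries (bottom), grey for Control and red for Sox9-tg. Dlx6os1 and the interneuron sum are both lowest in Sox9-tg replicate 2, at 66.5 and 755 CPM, and Neat1 and the microglial sum are both highest in Control replicate 2, at 38.6 and 851 CPM.

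Sox2ot and Pantr1 stand beside transcription factor genes of neural progenitors. Sox2ot (chromosome 3, 34104270 to 34682619, plus strand) holds Sox2 inside an intron, on the same strand, and shares no exon base with it. Sox2ot gave 116, 79.1 and 120 CPM in the Control and 159, 74.9, 79.2 and 102 CPM in the Sox9-tg libraries. The groups lay across each other, with means of 105 ± 22.5 and 104 ± 38.5 CPM and a log2 fold change of -0.02 (SE 0.27), which was -0.30 without Sox9-tg replicate 1. Sox2, which maintains neural progenitors, had 475 ± 50.3 and 405 ± 42.1 CPM and did not pass (-0.23, SE 0.14, adjusted p = 0.331). None of 11 genes tested within 500 kb of Sox2ot passed with edgeR, DESeq2 or limma-voom, and 1 of them had an unadjusted p under 0.05 (Ttc14).

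Pantr1 (chromosome 1, 42590782 to 42694842, minus strand) starts 925 bases from Pou3f3, a POU-domain factor of cortical progenitors and neurons, and runs away from it. Levels of Pantr1 were 94.9, 75.7 and 71.4 CPM in the Control and 62.2, 58.6, 56.5 and 61.8 CPM in the Sox9-tg libraries. Every Sox9-tg library was below every Control library, and the highest Sox9-tg library was 1.1 times the lowest, where 94.2% of genes of at least 50 CPM had as wide a range or a wider one. The log2 fold change was -0.43 (SE 0.12), past the threshold with all libraries. The call was lost without any single library other than Sox9-tg replicate 1 and in 9 of 15 alternatives in all, and over the alternatives the log2 fold change lay between -0.51 and -0.29. For Pou3f3 the Control libraries held 885, 762 and 919 CPM and the Sox9-tg libraries 691, 457, 630 and 632 CPM; the groups did not overlap, but the gene did not pass (-0.50, SE 0.17, adjusted p = 0.0872, or 0.0471 without Sox9-tg replicate 1). Its relative Pou3f2 likewise did not pass, at 205 ± 46.4 and 110 ± 44.9 CPM (adjusted p = 0.0941, or 0.0211 without Sox9-tg replicate 1). With DESeq2 both passed, at an adjusted p of 0.0248 for Pou3f3 and 0.0306 for Pou3f2. Both also passed with the replicate number as a block and without Sox9-tg replicate 4. Of 11 genes tested near Pantr1, Fhl2, a cofactor gene at 428 kb, rose from 2.65 ± 0.0205 to 8.72 ± 2.85 CPM (1.72, SE 0.31, adjusted p = 0.00839).

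Leaving out Sox9-tg replicate 1 moved these counts together: 6 of the 10 rows then passed, Miat and both Dlx6os1 rows being added and none lost, beside 19.4% of all genes, against 3 of 10 and 13.5% with every library. In that library Meg3, Miat, both Dlx6os1 rows, Sox2ot, Malat1, Pantr1 and BC006965 were at their highest among the Sox9-tg libraries. It also had the highest neuronal and interneuron sums of the Sox9-tg group, 3900 and 2885 CPM, and the lowest NG2 glia and oligodendrocyte sums, 10840 and 1247 CPM. Long non-coding genes took 6.26% of its counts, against 3.27% to 5.04% in the other Sox9-tg and 2.74% to 5.26% in Control libraries. Of all libraries it had the most genes with a count (26709). The part of cell mixture or of RNA type in these shifts was not tested.

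Levels can be compared between genes only per length. In CPM per kb of annotated exon, the Control means ran from Malat1 (186 ± 38.1) over Miat (83.2 ± 20.8), Dlx6os1 (72.1 ± 23.8), Meg3 (28.9 ± 9.92), Pantr1 (18.1 ± 2.80), 2610035D17Rik (9.24 ± 0.957), Sox2ot (9.05 ± 1.94) and Neat1 (0.897 ± 0.849) to BC006965 (0.216 ± 0.0469). The ranges over libraries overlapped for the neighbours Miat and Dlx6os1, Meg3 and Pantr1, 2610035D17Rik and Sox2ot, and Neat1 and BC006965, and not for the others. Among 1365 tested long non-coding genes, Malat1, Miat and Dlx6os1 had ranks 3, 5 and 6 by this measure in Control libraries. In Sox9-tg libraries 2610035D17Rik stood at 98.1 ± 12.8 CPM per kb, above Miat (42.8 ± 15.5) and Dlx6os1 (35.04 ± 22.06) and within the range of Malat1 (61.2 to 708), while Meg3 (9.09 ± 2.99) was below Pantr1 (13.4 ± 0.606). The order depends on which exons count. Divided by the longest transcript, in Control, Pantr1 (38.7 CPM per kb) stood above Meg3 (35.9) and Sox2ot (30.1) above 2610035D17Rik (10.5).

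**Figure D5:**
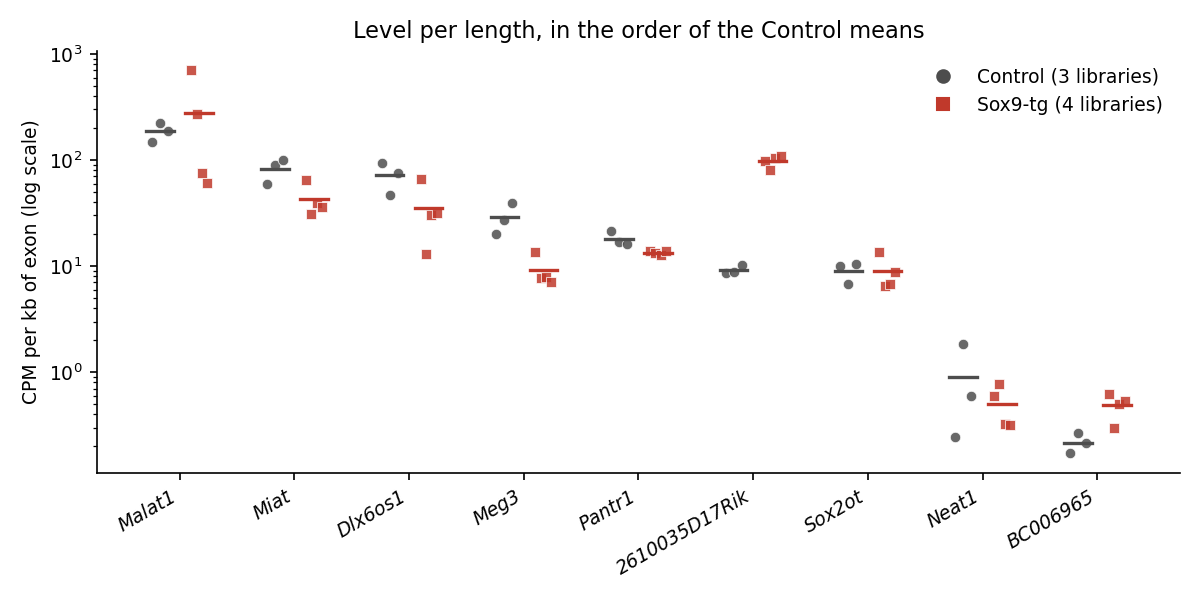
CPM per kb of annotated exon for each long non-coding RNA in each library, on a log axis, ordered by the Control mean, with grey circles for Control and red squares for Sox9-tg libraries and a bar at each group's mean. Malat1 is highest in Control at 186 CPM per kb and BC006965 lowest at 0.216, and 2610035D17Rik moves from 9.24 to 98.1.

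The genes whose profile over the 7 libraries came closest were found for each RNA by the mean absolute difference in log2 CPM after centring each gene, which includes the difference between the groups. For 2610035D17Rik they were Scube3 (0.21), Sox9 itself (0.22) and the melanocyte enzyme gene Dct (0.24). For Meg3 they were the potassium channel gene Kcnn2 (0.19), the receptor kinase gene Grk3 (0.21) and the muscarinic receptor gene Chrm2 (0.22). For Dlx6os1 they were the synaptic adhesion gene Nrxn3, the cyclin gene Ccnd2 and the neuronal splicing factor gene Srrm4, at 0.12 to 0.15, and for Neat1 they included Tsnaxip1 (0.16) and Efhc2 (0.17). Pantr1 was nearest to Umad1, Ckap5 and Trim37, at 0.05 to 0.06. For BC006965 they were Rasl11b (0.13), Ttc6 (0.15) and Lrp5 (0.16), for Sox2ot Hdx, Acvr2b and Auts2, at 0.10 to 0.11, and for Miat Hist1h1b, P4ha2 and Tulp1, at 0.13 to 0.14. For Malat1 the closest were Hgfac (0.21), Wnt2b (0.22) and Scarna9 (0.25), with Control means of 0.672, 1.22 and 2.02 CPM.

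Counted over all windows, 117 genes other than Sox9 were tested near the long non-coding RNAs, and 4 rose and 7 fell, or 9.40%, beside 13.5% of all genes. Among partner genes and other long non-coding RNAs of the lists, 51 were tested, of which 8 fell and none rose with edgeR (15.7%), and their median log2 fold change was -0.23. The other nuclear or neural long non-coding RNAs gave 5 of these falls out of 19 tested, beside 5.86% lower of all genes. Of the 1365 long non-coding genes tested, 56 were lower. The 5 were Rian and Mirg, also listed with the Meg3 region, and the neural Six3os1 (66.7 ± 37.9 to 19.1 ± 1.72 CPM, adjusted p = 0.00617), Snhg11 (19.4 ± 15.7 to 4.17 ± 0.882 CPM, adjusted p = 0.021) and Sox1ot (203 ± 66.9 to 74.0 ± 35.4 CPM, adjusted p = 0.0329). Snhg11 was lost without Control replicate 3 (0.0531), Sox9-tg replicates 3 (0.0567) or 4 (0.0618) and with limma-voom (0.0723), and Sox1ot without Control replicate 1 (0.112), Control replicate 3 (0.128), Sox9-tg replicate 3 (0.0935) or Sox9-tg replicate 4 (0.0896). H19, an imprinted RNA of embryonic tissues, had 23.8 ± 2.06 and 78.8 ± 65.7 CPM and did not pass (1.73, SE 0.60, adjusted p = 0.0991), but it passed upward without Sox9-tg replicate 1 (0.012) or with no filter on low counts (0.0481). Mir124a-1hg, a host gene of a neuronal microRNA, had 114 ± 30.3 and 31.1 ± 30.8 CPM and did not pass (-1.88, SE 0.64, adjusted p = 0.0914), but it passed downward without Sox9-tg replicate 1 (0.00402), with limma-voom (0.0316) or with no filter (0.0469). Without Sox9-tg replicate 1, Mir99ahg (0.00501) and Dleu2 (0.00418) also passed downward, and without Sox9-tg replicate 2 Snhg1 did (0.0382). Tug1, a widely expressed nuclear RNA, had 159 ± 17.1 and 164 ± 11 CPM and did not pass (adjusted p = 0.844).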

How the data were processed

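The authors deposited raw read counts per Ensembl gene for each of 7 libraries. The build was GRCm38, and STAR 2.5.2b, Trimmomatic 0.36, Subread 1.5.2 with featureCounts, DESeq and DESeq2 are named, per the submitters' processing notes. Not given in the sources used here are their roles and settings, the annotation release and the use of strand, so reads of overlapping or antisense genes cannot be told apart.

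Genes with low counts were removed with filterByExpr (minimum count 10, total 15), which left 16616 of 49315 genes. Libraries were scaled with TMM factors and tested in edgeR 4.0.16 (R 4.3.3) with the quasi-likelihood F test, two-sided, group as the only term and Benjamini-Hochberg adjustment over all genes tested. The SE is the size of the log2 fold change divided by the square root of F. Per-length levels, positions and transcript sequences use GENCODE M21 (GRCm38), and promoters use RefSeq (GRCm38.p6). The steps were tested on simulated data. There, 7.94% of genes set to differ by a factor of 1.5 were recovered, 49.2% at a factor of 2 and 81.2% at a factor of 4. Of the calls, 4.17% were false. A gene that did not pass may therefore still differ between the groups.

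The genes, lists and partner genes were chosen with earlier results of these data known. Genes named besides them were those within 500 kb (2 Mb for Sox9) that passed, the nearest coding genes, the listed partners and the 3 genes closest in profile; some partners are given only as counts, and some genes that the rule gives are not reported here. Tardbp, Srsf2 and Ttc14 were named after their values were seen. Alternatives were other scalings, filters and tests (limma 3.58.1, DESeq2 1.42.0), a replicate block and leaving out each library.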

Additional observations from a re-analysis of the deposited data

Results flagged for a closer look

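Of 75 genes looked at, 7 had a Sox9-tg library whose gap to the next library took up most of the range of the 4 Sox9-tg libraries, past Dixon's 95% limit for 4 samples, which chance passes in about 1 of 20 groups. In 5 of the 7 this was Sox9-tg replicate 1 standing high: Meg3 at 245 CPM against 129 to 144 in the others, the short RNA entry of Dlx6os1 at 2.15 against 0.299 to 0.488, Sdk2 at 53.2 against 21.9 to 26.2, Mir99ahg at 27.5 against 7.81 to 9.08, and Dleu2 at 13.4 against 3.61 to 4.70. Slc39a11 was low in the same library, at 21.6 CPM against 30.5 to 31.3. Pola2 was low in Sox9-tg replicate 2, at 20.2 CPM against 28.4 to 29.0. All 5 high genes had lower means in Sox9-tg than in Control libraries.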

How the results depend on the processing

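The log2 fold change of Sox9 stayed between 3.19 and 3.46 and passed in every alternative run, and 2610035D17Rik and Meg3 passed in all 15. Leaving out 1 library in turn, the number of genes changed ran from 965 to 3169, of rows of the long non-coding RNAs past the threshold from 2 to 6, of neighbour genes from 6 to 21 and of partner genes from 4 to 15. DESeq2 called more genes in all, 3048 against 2251 with edgeR. With it 5 of the 10 rows and 18 neighbour genes passed, against 3 and 11 with edgeR. The replicate number was also used as a block, without Sox9-tg replicate 4, which has no Control library of that number. Without the block the remaining libraries gave 1356 genes, 2 rows, 9 neighbour and 5 partner genes past the threshold. With it, 3086 genes changed, with 4 rows, 20 neighbour and 17 partner genes past the threshold. Dlx6os1 passed under this block (log2 fold change -1.23), as did, all downward, Gad1 (adjusted p = 0.00874), Dlx1 (0.0124), Dlx2 (0.0131), Dlx5 (0.0481), Pou3f3 (0.0374), Pou3f2 (0.00818), Mir124a-1hg (0.0142), Mir99ahg (0.00276) and Gm26917 (0.0365). The main fit did not use the numbers as pairs, and whether they pair the libraries was not settled. Deviations of same-numbered libraries from their group means correlated at 0.317, 0.613 and 0.07 over 16616 genes. Control replicates 1 and 2 each correlated best with the Sox9-tg library of the same number. The crossed values were -0.512 (Control 1 with Sox9-tg 2) and -0.364 (Control 2 with Sox9-tg 1). Control replicate 3 correlated best with Sox9-tg replicate 1 (0.14). Sox2ot, Malat1 and Neat1 changed sign between alternatives without passing in any. A count of 3 equals 0.097 to 0.193 CPM, so BC006965 and the scarce genes of the Meg3 region rest on few reads. The cause of these shifts was not tested.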
